A study of Mus musculus with 10 samples.

Results

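The 9 messenger RNAs followed here encode subunits of the transcription factor AP-1: Jun, Junb, Jund, Fos, Fosb, Fosl1, Fosl2, Atf3 and Batf3. They were taken by symbol, through the GENCODE M21 annotation, from the 54752 genes of the deposited tables, and 7 of them were among the 12752 genes with enough counts to test. Their levels stand beside that of Jdp2, a related repressor that the cells received by retrovirus.

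The cells were primary mouse embryonic fibroblasts (MEFs) at passage 2, from E13.5 embryos whose fathers carried an Oct4-GFP transgene on a CBA/CaJ × C57BL/6J background and whose mothers were 129S4/SvJaeJ. Every sample had been exposed for 48 h to retroviruses for Jdp2, Sall4, Esrrb and Glis1, with the aim, by the series title, of making pluripotent stem cells. Cells were collected after 0, 1, 3, 5 and 7 days in iCD3 medium, written here as D0, D1, D3, D5 and D7. D0 cells therefore carried the 4 viruses too, and a change between days is a change after infection. No uninfected or empty-virus sample was analysed here. As D0 was 0 days in iCD3 medium, time and exposure to that medium cannot be told apart in comparisons with D0. Each day had 2 RNA-seq libraries, replicate 1 and replicate 2, from what the series text calls independent experiments. Nothing further ties a library to a culture, so p-values reflect only how these libraries differ, which may be technical.

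AP-1 is a family of dimers. Jun proteins pair with each other or with Fos and ATF proteins through a leucine zipper, Fos proteins need a Jun partner, and the dimers bind the TPA response element (TRE) or the related cyclic AMP response element (CRE). Fos, Fosb, Jun, Junb and Atf3 are classic immediate early genes, switched on within minutes by serum, growth factors or stress through MAP kinases, whereas Jund is expressed more evenly. In fibroblasts AP-1 is known for driving proliferation, matrix remodelling and inflammatory genes, and Jdp2 and Batf3 are small members that pair with Jun proteins and mostly repress.

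Replicate 1 libraries held 2176457 to 4335931 estimated counts and those of replicate 2 held 1329377 to 1492105, so that 3 counts stood for 0.692 to 1.38 CPM (counts scaled to a common library size) in replicate 1 and 2.01 to 2.26 in replicate 2. The D0 libraries expressed fibroblast genes, with 12 markers summing to 11900 and 13200 CPM. The 12 summed to 603 and 939 CPM at D7, and 10 markers of pluripotent cells summed to 1770 and 1340 CPM at D7, against 7.83 and 15 CPM at D0. In such bulk samples fewer cells of a type and less RNA per cell cannot be told apart.

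Upstream sequence was compared for the members because Jun and Atf3 are textbook targets of AP-1 and ATF dimers. RefSeq (GRCm38.p6) gave a window of 250 bases before the RefSeq start for 8 of the 9 members. That start can differ from the GENCODE start of the gene spans given below. The Jund window, chr8:70697489-70697738, ends well before the GENCODE start at 70698949. The windows of Fosl2, Atf3 and Batf3 lie inside their GENCODE spans. Those of Jun, Junb, Fosl2 and Atf3 are shown: Jun and Atf3 hold the only motif matches, printed in capitals, and Junb and Fosl2 are called lower below. The windows are chr4:95052223-95052472 (minus strand) for Jun, chr1:191183334-191183583 (minus) for Atf3, chr8:84978749-84978998 (minus) for Junb and chr5:32136222-32136471 (plus) for Fosl2, each read 5′ to 3′ toward the start.
Jun: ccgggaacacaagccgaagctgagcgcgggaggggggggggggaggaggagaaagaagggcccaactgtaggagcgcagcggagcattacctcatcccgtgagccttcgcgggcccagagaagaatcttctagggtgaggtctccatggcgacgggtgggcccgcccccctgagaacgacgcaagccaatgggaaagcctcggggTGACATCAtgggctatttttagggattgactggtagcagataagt
Atf3: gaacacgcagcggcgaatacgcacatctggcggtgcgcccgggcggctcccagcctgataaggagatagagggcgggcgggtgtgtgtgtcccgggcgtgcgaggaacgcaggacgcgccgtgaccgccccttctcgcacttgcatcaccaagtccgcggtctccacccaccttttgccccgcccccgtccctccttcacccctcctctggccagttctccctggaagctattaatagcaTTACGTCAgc
Junb: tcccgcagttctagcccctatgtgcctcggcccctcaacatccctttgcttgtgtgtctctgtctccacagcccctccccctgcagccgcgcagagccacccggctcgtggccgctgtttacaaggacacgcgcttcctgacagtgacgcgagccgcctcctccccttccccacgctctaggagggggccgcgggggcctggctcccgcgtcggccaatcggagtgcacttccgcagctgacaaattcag
Fosl2: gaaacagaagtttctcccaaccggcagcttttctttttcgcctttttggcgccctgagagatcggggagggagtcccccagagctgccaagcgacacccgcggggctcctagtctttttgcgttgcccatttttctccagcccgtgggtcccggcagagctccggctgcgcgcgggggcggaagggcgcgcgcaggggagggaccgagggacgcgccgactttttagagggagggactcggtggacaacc
The CRE variant TGACATCA lay 45 to 38 bases before the Jun start, and 2.93% of 32851 RefSeq windows of the same length held those letters. TTACGTCA lay 10 to 3 bases before the Atf3 start, and 0.447% of windows held it. The TRE letters TGANTCA were in none of the 8 members' windows and in 6.75% of all windows. The full CRE, TGACGTCA, was in none of the 8 and in 1.55% of all, and the CArG box, the serum response factor motif, was in none of the 8 and in 1.47%. Both strands were searched, no matches overlapped, and a match is a string of letters in the window, not a bound site. A site outside these 250 bases cannot be seen, so a motif absent here, such as the CArG box in Fos, may lie farther upstream.

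Among the Jun subunits, Junb fell deeply by D7, Jun was lower in both D7 libraries without passing the test, and Jund was called on no day. Junb (ENSMUSG00000052837, GRCm38 chr8:84974484-84978718, minus strand) encodes a Jun protein that activates less strongly than c-Jun at single TRE sites. In replicate 1 it had 607, 256, 133, 40.3 and 30.2 CPM at D0, D1, D3, D5 and D7. In replicate 2 the values were 577, 524, 291, 219 and 69.7 CPM. Both libraries were lower on each later day than the one before, and every D7 library lay below every D0 library. Junb averaged 49.9 ± 27.9 CPM at D7 and 592 ± 21 CPM at D0 (SD, n = 2 each), a log2 change of -3.60 (SE 0.76, edgeR quasi-likelihood adjusted p = 0.00835). The paces differed: by D5 the log2 change was -3.88 within replicate 1 and -1.40 within replicate 2. The D5 change of -2.22 had adjusted p = 0.0573, and the D3 change of -1.49 had 0.207. With the replicate number in the model these became 0.000842 and 0.0113. Junb shares 351 bases with the antisense gene Prdx2, which had 246 and 248 CPM (unscaled) at D7 and 344 and 279 at D0. The use of strand in counting was not given in the sources used here, so reads of such a pair could be mixed.

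Jun (ENSMUSG00000052684, chr4:95049034-95052222, minus strand) encodes c-Jun, the founding AP-1 subunit. It had 134, 85.8, 74.3, 37 and 30.5 CPM from D0 to D7 in replicate 1. Replicate 2 had 154, 140, 115, 103 and 72.3 CPM. Both series descend at every step, and the D7 libraries lie below both D0 libraries. The mean was 51.4 ± 29.6 CPM at D7 and 144 ± 14.2 CPM at D0, a log2 change of -1.52 (SE 0.53, edgeR adjusted p = 0.0715), and within the replicates -2.11 and -1.08. With the replicate number in the model Jun was called lower at D7 (adjusted p = 0.00143) and at D5 (0.00881, against 0.197 without it). The antisense gene Junos, which shares 689 bases with Jun, held at most 3.1 estimated counts in any library.

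Jund (ENSMUSG00000071076, chr8:70698949-70700616, plus strand), known as a Jun protein of resting and differentiating cells, moved in no steady direction. Its CPM from D0 to D7 were 233, 151, 308, 127 and 116 in replicate 1. In replicate 2 they were 336, 291, 383, 479 and 300. The replicates parted at D5, where the lower library was replicate 1, and the D7 range overlaps the D0 range. D7 averaged 208 ± 131 CPM and D0 285 ± 72.6 CPM (log2 change -0.46, SE 0.60, edgeR adjusted p = 0.657). The other days against D0 gave -0.37 at D1, 0.28 at D3 and 0.08 at D5, none of them called, and the sign at D1, D5 and D7 turned when some single libraries were left out. The antisense gene Gm11175 covers 55.1% of Jund's span and had 20.9 to 61.8 CPM (unscaled). It had 36.12 to 131.33 estimated counts in a library, where Jund had 408.59 to 1051.67. Reads of the pair could be mixed, so Jund's values are uncertain to that extent.

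**Figure D1:**
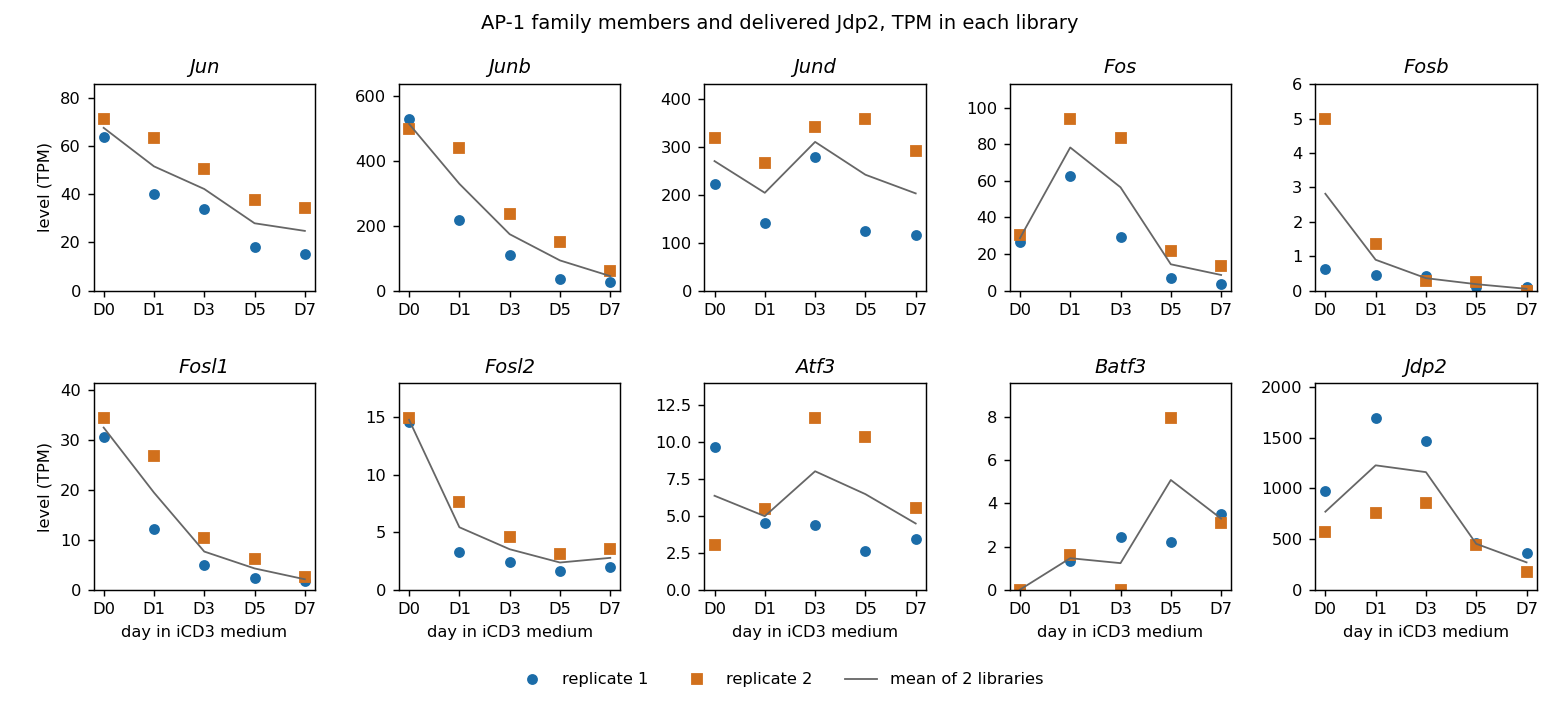
Level of each AP-1 member and of Jdp2 in TPM (transcripts scaled for length and library size, y axis, own scale in each panel) against the day in iCD3 medium (x axis). Circles are replicate 1, squares are replicate 2, and the line joins the means of the 2 libraries. Junb, Jun, Fos, Fosl1, Fosl2, Jdp2 and, at few counts, Fosb are lower in both D7 libraries than in both D0 libraries. By CPM the same holds for 30.4% of all tested genes. Fos is highest at D1 in both replicates.

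Of the Fos subunits, the Fos-related antigens Fosl1 and Fosl2 fell and Fos itself was highest at D1. Fosl1 (ENSMUSG00000024912, chr19:5447547-5455946, plus strand) encodes Fra-1, a Fos protein without the strong activation domain of c-Fos that is known from invasive and mesenchymal cells. It had 32.8, 13.4, 5.56, 2.42 and 1.74 CPM from D0 to D7 in replicate 1. Replicate 2 had 37.4, 29.9, 11.9, 8.51 and 2.63 CPM. Each step was downward in both libraries. Fosl1 averaged 2.18 ± 0.628 CPM at D7 and 35.1 ± 3.28 CPM at D0 (log2 change -4.07, SE 0.71, edgeR adjusted p = 0.0032). It was already called at D5 (-2.88, adjusted p = 0.0137), and at D3 the change of -2.07 had adjusted p = 0.0531, or 0.00312 with the replicate number in the model. Ccdc85b, antisense to Fosl1 over 2767 bases, had 7.15 and 6.3 CPM (unscaled) at D7 and 14.2 and 14.1 at D0. The D7 value of Fosl1 is near the level of 3 counts, so the size of the change is less sure than its direction.

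Fosl2 (ENSMUSG00000029135, chr5:32135801-32157842, plus strand) encodes Fra-2, the other Fos-related antigen, and was already lower in both D1 libraries. Replicate 1 had 64.1, 14.6, 10.8, 6.76 and 7.61 CPM from D0 to D7. Replicate 2 had 67.4, 26.3, 22.4, 17.8 and 15.8 CPM. All 8 later libraries lie below both D0 libraries. The log2 change against D0 was -1.72 at D1 (SE 0.53, edgeR adjusted p = 0.105, or 0.00422 with the replicate number in the model). It was -2.04 at D3 (adjusted p = 0.032), -2.53 at D5 (0.0111) and -2.57 at D7 (SE 0.55, 0.00935). Fosl2 averaged 11.7 ± 5.77 CPM at D7 and 65.7 ± 2.31 CPM at D0, and the D7 to D5 difference was -0.03 (SE 0.59).

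Fos (ENSMUSG00000021250, chr12:85473890-85477273, plus strand) encodes c-Fos, the best known immediate early product. Its CPM were 36.2, 61.2, 41.6, 9.18 and 4.35 from D0 to D7 in replicate 1. In replicate 2 they were 29.2, 104, 90.2, 23.2 and 18.4. Both replicates were highest at D1 and lowest at D7. In CPM the D1 and D3 libraries lay above both D0 libraries and the D5 and D7 libraries below them. In TPM, D3 replicate 1 (29.3) lay below D0 replicate 2 (30.5). Of all tested genes, 24.4% lay wholly above D0 at D1 and 27.7% at D3. Wholly below D0 lay 24.5% at D5 and 30.4% at D7. D1 averaged 82.5 ± 30.2 CPM and D0 32.7 ± 4.96 CPM, a log2 change of 1.32 (SE 0.62, edgeR adjusted p = 0.316), so the higher D1 level did not pass the test. With no filter on low counts it did (adjusted p = 0.0267). D7 averaged 11.4 ± 9.93 CPM (log2 change against D0 -1.69, SE 0.68). That change had an edgeR adjusted p of 0.116, and of 0.00743 with the replicate number in the model. It was -0.83 without D7 replicate 1 (0.546) and -2.86 without D7 replicate 2 (0.0318). The step between D3 and D5 was the steepest of Fos: D5 against D3 gave log2 differences of -2.08 and -1.92 within the replicates and -2.10 (SE 0.66) in the fit. Its edgeR adjusted p was 0.248, and 0.0225 with the replicate number in the model, where the call was made.

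Fosb (ENSMUSG00000003545, chr7:19302696-19310051, minus strand), a further immediate early Fos subunit, was too low to test. Its pooled counts were 10 at D0, 4 at D1, 3 at D3, 2 at D5 and 1 at D7. The D0 counts were 3 in replicate 1 and 7 in replicate 2. Per total count, the D7 to D0 ratio was 0.0636 with an exact 95% counting interval of 0.00147 to 0.447, and the D1 to D0 ratio was 0.307 (0.0703 to 1.07). These intervals cover counting error only and carry no spread between libraries.

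The ATF-like members were low throughout. Atf3 (ENSMUSG00000026628, chr1:191170296-191218039, minus strand) encodes a stress-induced protein that represses as a homodimer. In replicate 1 its CPM from D0 to D7 were 4.89, 2.43, 5.85, 2.66 and 4.13. In replicate 2 they were 3.74, 3.56, 10.4, 10.8 and 3.29. In CPM both D3 libraries lie above both D0 libraries, replicate 2 was high at D3 and D5, and at D7 the ranges overlap. In TPM the D3 libraries (4.40 and 11.65, replicate 1 first) overlap the D0 libraries (9.69 and 3.04). Atf3 had 5 to 20 counts in a library. The D3 to D0 change was 0.85 (SE 0.78, edgeR adjusted p = 0.565) and the D7 to D0 change -0.20 (SE 0.80, adjusted p = 0.895). Atf3 passed the filter on low counts only through 3 libraries of D3 and D5, so its place among the tested genes rests on those days.

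Batf3 (ENSMUSG00000026630, chr1:191097847-191108945, plus strand), best known for its need in conventional dendritic cells, had 0 counts in both D0 libraries. Its pooled counts were 3 at D1, 4 at D3, 8 at D5 and 9 at D7. The floor of 3 counts over the D0 libraries is 0.818 CPM. Against it, the observed Batf3 counts, taken as exact, were at least 1.91-fold higher at D7 and at least 1.85-fold higher at D5. The exact 95% counting interval of the ratio is wider, with lower limits of 1.26 at D7 and 1.19 at D5. The level at D7 was 3.49 and 3.10 TPM. Of 12 macrophage and dendritic cell markers, only Flt3 and Itgax were at 0 at D7, and only Flt3 and Xcr1 at D0. Flt3 was at 0 on every day. The 12 summed to 22.3 and 13.8 CPM at D7, against 29.8 and 21.2 CPM at D0. Only 2 of them were tested, and neither was called at D7 against D0. Zbtb46 had a log2 change of -0.45 (edgeR adjusted p = 0.721) and Cd68 one of 0.95 (0.426).

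**Figure D2:**
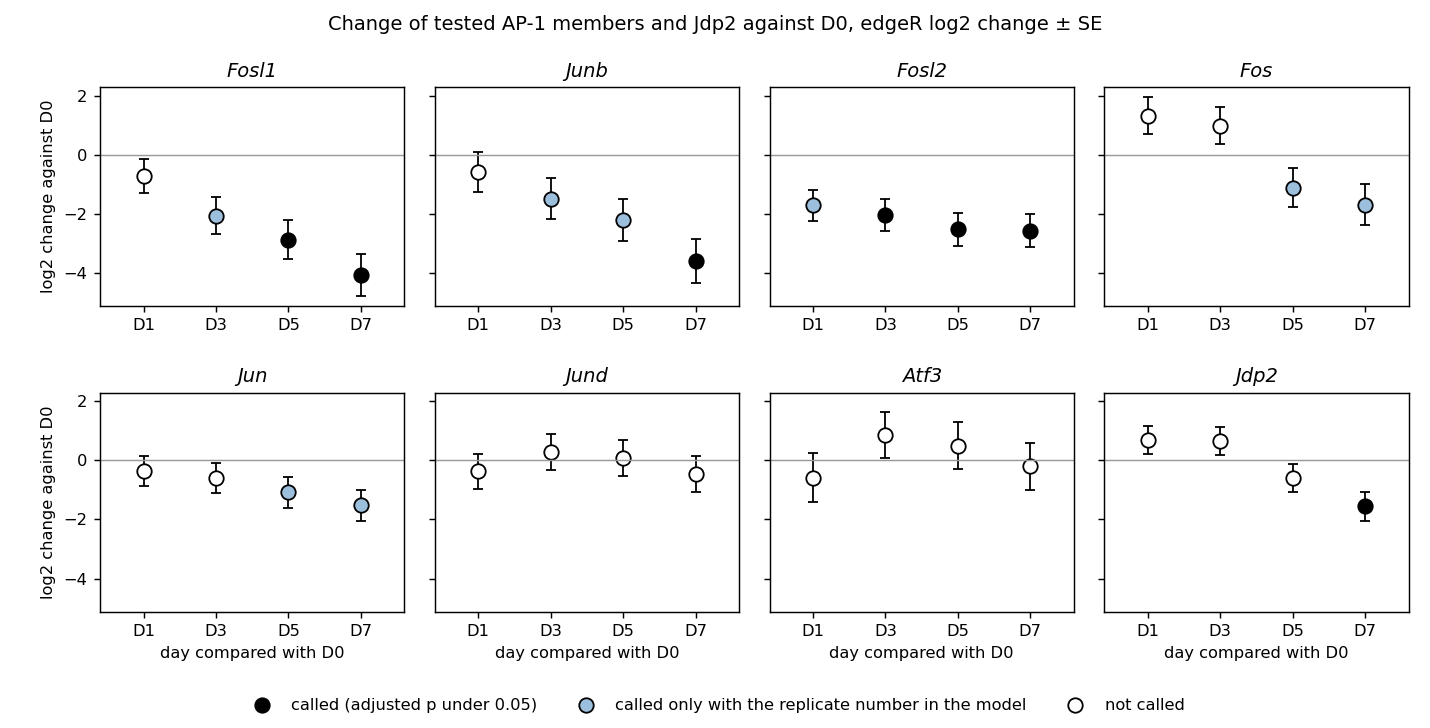
Log2 change of the 7 tested members and of Jdp2 at D1, D3, D5 and D7 against D0 (y axis, edgeR, bars are ± SE). Black points were called at adjusted p under 0.05, blue points only with the replicate number in the model, and white points in neither. Fosl1, Junb and Fosl2 end at -4.07, -3.60 and -2.57, while Jund and Atf3 stay within 1 log2 unit of 0.

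Counted together, 3 of the 7 tested members were lower at D7 than at D0 (Fosl1, Fosl2 and Junb) and none was higher, where 8.71% of all 12752 tested genes were called lower and 9.15% higher. At D5 the count was 2 (Fosl1 and Fosl2), beside 7.83% of all genes, and at D3 it was 1 (Fosl2), beside 5.94%. At D1 no member was called, beside 2.12% of all genes called lower, where 2163 genes had an unadjusted p under 0.05. DESeq2 called 775 genes at D1 and no member either. With the replicate number in the model the lower members were 1, 3, 5 and 5 at D1, D3, D5 and D7, beside 5.32%, 11%, 13% and 13.7% of all genes. Fos and Jun joined at D5 and D7. The median log2 change of the tested members was -1.69 at D7, against 0.06 over all tested genes. Fosl1 and Atf3 entered the test through some days only, so this median does not stand for all 9. In 5 members (Fos, Fosl1, Fosl2, Jun and Junb) the D7 libraries lay wholly below the D0 libraries, as did those of 30.4% of all tested genes. All 4 comparisons share the D0 libraries. Without D7 replicate 1 the D7 calls of Fosl1, Junb and Fosl2 were lost, with log2 changes of -3.70, -3.08 and -2.05. Fosl2 also lost its D7 call without D0 replicate 1 (-2.54) or D0 replicate 2 (-2.48). At D5 Fosl1 and Fosl2 lost theirs without D0 replicate 1, D0 replicate 2 or D5 replicate 1 (-2.90 to -1.85). At D3 Fosl2 lost its call when any 1 of the 4 D0 and D3 libraries was left out (-2.59 to -1.50). Such fits leave 1 library on a side and have less power for every gene, so a lost call does not single out these members.

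Between neighbouring days no member was called by edgeR, beside 0.0549% of all genes (D3 against D1), 0.0706% (D5 against D3) and 0% (D7 against D5). With the replicate number in the model Fos alone was called, at D5 against D3, beside 1.04% of all genes called lower. For D7 against D5, edgeR called 0 genes, 810 genes had an unadjusted p under 0.05, and DESeq2 called 30. The member with the largest change in that step was Junb (log2 change -1.38, SE 0.71, edgeR adjusted p = 0.81), with log2 differences of -1.64 in replicate 2 and -0.41 in replicate 1.

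The replicates differed in the same way in most members. At D1, D3, D5 and D7 the levels of Jun, Junb, Jund, Fos, Fosl1 and Fosl2 were all higher in replicate 2 than in replicate 1, on the CPM and the TPM scale. On the same 4 days the summed level of the 12 fibroblast markers was also higher in replicate 2, and that of the 10 pluripotent cell markers was lower, for example 1340 CPM in replicate 2 and 1770 CPM in replicate 1 at D7. Their part in the members' levels was not tested.

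On the per-length TPM scale the order of the members changed over the days. At D0 Junb led with 530 and 497 TPM, clear of Jund with 223 and 317 TPM. Jun followed with 63.7 and 71.4 TPM, then Fosl1 and Fos, whose ranges overlap near 30 TPM. At D1 Junb and Jund overlapped, and Fos (62.5 and 94 TPM) stood beside Jun (40 and 63.2 TPM) with overlapping ranges. At D3 Jund was the highest member with 280 and 341 TPM, above Junb with 110 and 237 TPM. At D7 Jund had 115 and 290 TPM, clear of Junb with 27.6 and 61.4 TPM, and Fosb was lowest with 0.10 and 0 TPM, below Fosl1 and Fosl2, which overlapped.

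As a share of the summed TPM of the 9 members, Junb held 58.9% and 51% at D0, 45.2% and 48.5% at D1, 23.6% and 32.1% at D3, 18.6% and 25.1% at D5 and 16% and 14.8% at D7 (replicate 1 first). Jund held 24.8% and 32.6% at D0, 29.2% and 29.5% at D1, 59.8% and 46.1% at D3, 64% and 60.2% at D5 and 66.9% and 70.1% at D7. From D3 on Jund held more than Junb in every library. The 3 Jun genes together held 82.6% to 93.2% in all 10 libraries. The 4 Fos genes had their highest share at D1, with 16.2% and 14.3%, and their lowest at D7, with 4.16% and 4.75%. Because the shares sum to 100%, Jund's larger share at D7 went with a smaller sum and not with a called rise of Jund.

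**Figure D3:**
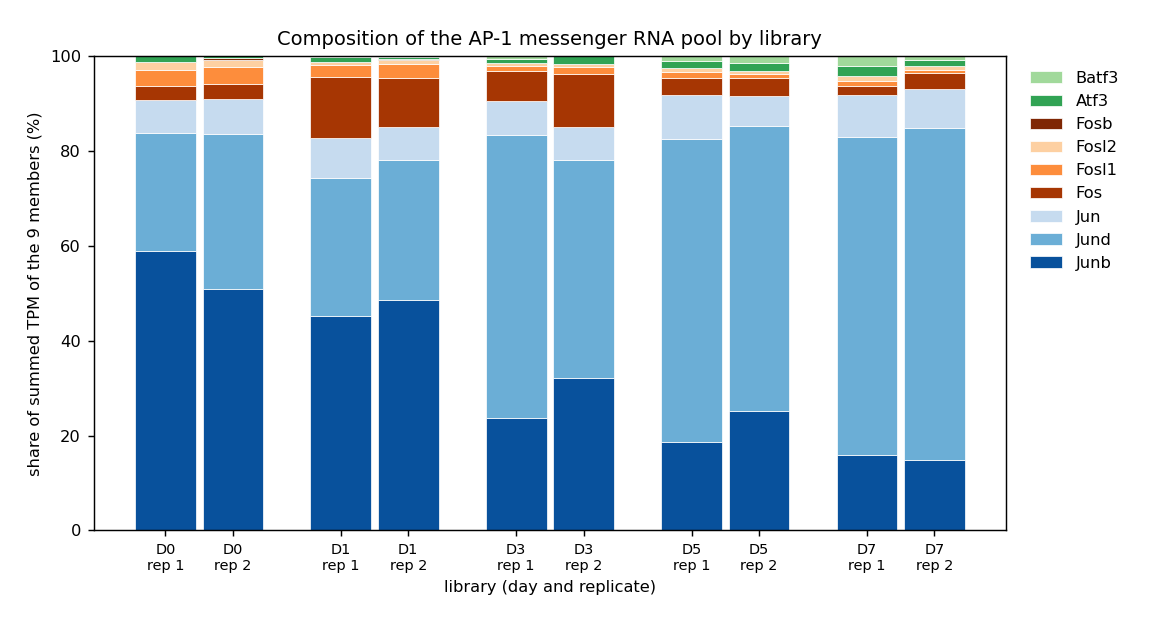
Share of each member in the summed TPM of the 9 members (y axis, percent) in each of the 10 libraries (x axis, day and replicate). Blue shades are the Jun genes, orange and brown shades the Fos genes and green shades Atf3 and Batf3. Junb takes 58.9% and 51% at D0 and 16% and 14.8% at D7, and Jund 24.8% and 32.6% at D0 and 66.9% and 70.1% at D7.

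Jdp2 (ENSMUSG00000034271, chr12:85599027-85639878, plus strand) lies on the same chromosome as Fos and was delivered by virus. The counts do not separate viral from endogenous transcripts. TPM also depends on transcript length, and the length of the viral transcript was not examined. The TPM of Jdp2 beside other genes, and its ratios below, are therefore uncertain. Its level from D0 to D7 was 972, 1696, 1468, 460 and 361 TPM in replicate 1. In replicate 2 it was 566, 757, 851, 445 and 178 TPM. Both replicates were higher at D1 and D3 than at D0 within the replicate, and lowest at D7. In CPM, Jdp2 averaged 255 ± 116 at D7 and 756 ± 276 at D0 (log2 change -1.56, SE 0.48, edgeR adjusted p = 0.0442). That call was lost in 5 of the 10 fits without 1 library, with adjusted p between 0.0582 without D3 replicate 1 and 0.277 without D0 replicate 1, the others being those without D0 replicate 2, D7 replicate 1 and D7 replicate 2. The D1 change of 0.70 (SE 0.47, adjusted p = 0.529) was not called, and it was 0.02 without D1 replicate 1 and 1.19 without D1 replicate 2.

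The 9 members summed to 898, 484, 468, 195 and 172 TPM from D0 to D7 in replicate 1. In replicate 2 the sum was 973, 905, 738, 595 and 414 TPM. The ratio of Jdp2 to this sum was 1.08, 3.50, 3.14, 2.36 and 2.10 in replicate 1. In replicate 2 it was 0.582, 0.837, 1.15, 0.748 and 0.43. On the TPM scale Jdp2 thus exceeded the 9 members together on all 5 days in replicate 1, and at D3 only in replicate 2. By CPM, an alternative chosen after the data were seen, the ratio was lower: 0.854 at D0 and 1.72 to 2.89 later in replicate 1, and 0.358 to 0.965 in replicate 2, so that Jdp2 did not exceed the sum at D0 in replicate 1 or on any day in replicate 2. The day means were 0.831 ± 0.352, 2.17 ± 1.88, 2.14 ± 1.41, 1.55 ± 1.14 and 1.27 ± 1.18 (SD, n = 2), and the ranges of D1, D5 and D7 overlapped that of D0, while that of D3 lay above it. Against each single member, Jdp2 had the higher TPM at D0, D1, D3 and D5 in both libraries. At D7 Jdp2 lay above Jund in replicate 1 (361 and 115 TPM) and below it in replicate 2 (178 and 290 TPM). By CPM, Jdp2 was also below Junb at D0 in replicate 2 (561 and 577 CPM).

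**Figure D4:**
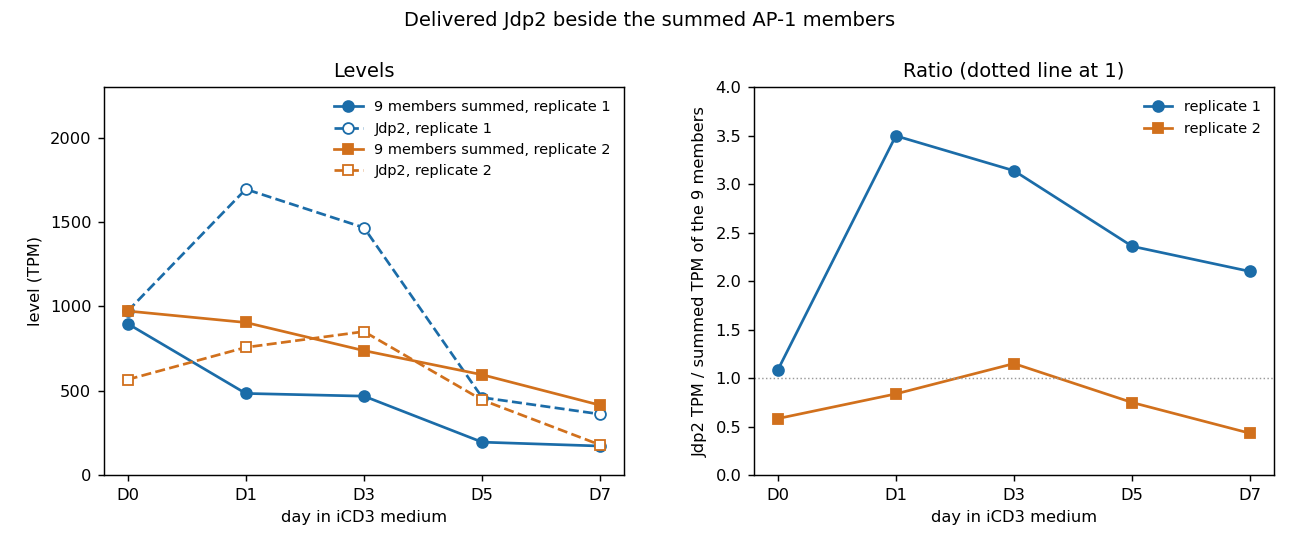
Left, TPM of delivered Jdp2 (dashed lines, open symbols) and summed TPM of the 9 members (solid lines, filled symbols) against the day, for replicate 1 (circles) and replicate 2 (squares). Right, the ratio of Jdp2 to that sum, with a dotted line at 1. Replicate 1 stays above the line from 1.08 to 3.50, and replicate 2 crosses it at D3 only, with 1.15. By CPM those values are 0.854 to 2.89 and, at D3, 0.965.

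Across the 10 libraries the members' log2 CPM were correlated to different degrees, which is given as a description because the libraries share days and replicates. The closest pair was Fosl1 and Junb (Pearson r = 0.979), followed by Jun and Junb (0.965). Jund had r of 0.431 to 0.736 with the Jun and Fos members, and Atf3 had 0.0896 with Fosl1 and 0.693 with Jund. Jdp2 had its highest r with Fos (0.655) and its lowest with Jund (0.0758). Among all tested genes, the courses most like that of Fosl2 were Ankrd1, a cardiac and muscle stress protein (r = 0.992), Des, desmin (0.991), and the chemokine Ccl2 (0.989). For Fosl1 they were Unc5b, Clcf1 and Adam8 (0.984 to 0.985), and for Junb they were Gsto1, Loxl1 and Slc39a13 (0.984 to 0.991). For Jun they were Igf2, Cryab and Gnas (0.977 to 0.987), and for Fos they were Kcnip3, Nr4a2 and Dusp3 (0.958 to 0.966). Nr4a2 is itself an immediate early gene. Jund's nearest were Cyba, Psap and Arf5 (0.940 to 0.946), and Atf3's were 2310039H08Rik, Snx8 and Brk1 (0.916 to 0.977). Genes with r above 0.95 numbered 83 for Fosl1, 66 for Fosl2, 53 for Junb, 20 for Jun, 10 for Fos, 1 for Atf3 and 0 for Jund.

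Other genes that work with AP-1 were counted from lists, at D7 against D0, beside the 8.71% lower and 9.15% higher of all tested genes. Of 31 tested bZIP genes outside the 9, which include dimer partners of Fos and Jun proteins, 7 were lower and none higher (median log2 change -0.49). With the replicate number in the model 11 were lower and 1, Dbp, was higher (edgeR adjusted p = 0.0367), a gene named after its value was seen. Creb5, a CRE-binding relative of Atf2, averaged 1.31 ± 0.00635 CPM at D7 and 16.1 ± 0.572 CPM at D0 (log2 change -3.57, SE 0.78, edgeR adjusted p = 0.00984). Creb3l1 (-2.48), Atf5 (-2.38) and Cebpa (-2.29) were the next. Atf4, a mediator of the integrated stress response, had 174 ± 26.8 CPM at D7 and 225 ± 4.22 CPM at D0 (adjusted p = 0.468), and Nfe2l1 was not called either (-0.49, adjusted p = 0.324).

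The MAP kinase genes that carry signals to AP-1 had 4 of 26 lower and none higher (median -0.11). Hras (-1.34), Map2k3 (-1.27), Mapkapk2 (-1.18) and Map2k4 (-0.97), a kinase that activates JNK, were the 4. Map2k2, which encodes the kinase MEK2, averaged 115 ± 7.19 CPM at D7 and 144 ± 29.8 CPM at D0 and was not called (log2 change -0.33, edgeR adjusted p = 0.6). Of 10 MAP kinase phosphatases 2 were lower, Dusp10 (-2.43) and Dusp1 (-2.38), and 1 was higher, Dusp9 (1.86), and with the replicate number in the model 4 were lower. Dusp1 averaged 33.4 ± 4.79 CPM at D7 and 173 ± 41.7 CPM at D0, and Dusp9 110 ± 22.3 CPM at D7 and 30.6 ± 12.8 CPM at D0. Serum response factor, which drives Fos from its promoter, and its cofactors had 2 of 6 lower: Srf (-1.51, edgeR adjusted p = 0.0226) and Elk3 (-1.59). Mrtfa (-1.06, adjusted p = 0.101, or 0.0112 with the replicate number in the model) and Elk1 (0.31) were not called.

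Of 19 tested immediate early genes outside AP-1, 7 were lower, 1 was higher and the median was -1.62. With the replicate number in the model 13 were lower and 2 higher. Ccn1, a secreted matrix protein, averaged 63 ± 54.9 CPM at D7 and 1430 ± 164 CPM at D0 (log2 change -4.54, SE 0.81, edgeR adjusted p = 0.00355). Ccn2 had -3.80, Egr1 -2.91 (37.2 ± 34.8 CPM at D7 and 266 ± 39.5 at D0, adjusted p = 0.0275) and Zfp36 -2.37. Klf2 was higher, with 121 ± 7.38 CPM at D7 and 15.7 ± 6.33 CPM at D0 (log2 change 2.97, adjusted p = 0.000631). Zfp36l1 (-0.45) and Klf10 (0.92, adjusted p = 0.101) were not called, but Klf10 was called higher with the replicate number in the model (0.0155).

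Of 28 textbook AP-1 target genes 22 were tested, of which 14 were lower and 3 higher (median -2.89). Lox, lysyl oxidase, averaged 5.57 ± 3.27 CPM at D7 and 753 ± 6.32 CPM at D0 (log2 change -7.24, SE 0.52, edgeR adjusted p = 7.04e-05). Ccl2 (-5.94) and Ptgs2, which encodes cyclooxygenase 2 (-5.86), were the next. Spp1, osteopontin, was higher with 283 ± 24.8 CPM at D7 and 55.6 ± 8.11 CPM at D0 (2.35, adjusted p = 0.00345), as was Vegfa (1.17). Mmp10 was called higher from 0 counts at D0, at least 2.95-fold over the floor of 3 counts. Hmga1 (-1.50, adjusted p = 0.0836, or 0.00073 with the replicate number in the model) and Hmox1 (0.08) were not called. Many of these targets are also fibroblast genes, and of the 12 fibroblast markers 9 were lower (median -3.00), Col1a1 by -4.82. Whether the targets moved with AP-1 or with the fibroblast program was not tested.

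Of 13 heat shock and stress genes, listed because stress induces Atf3, Fos and Jun, 2 were lower and none higher (median -0.19). Bag3 had -1.31 (edgeR adjusted p = 0.042) and Hspa5 -1.04 (0.0351). Hsp90ab1, the most abundant, had 4880 ± 273 CPM at D7 and 3150 ± 390 CPM at D0 (0.63, adjusted p = 0.15), and Hspa8 had 0.15. Of the other cell type lists, 6 keratinocyte markers summed to at most 5.48 CPM in any library, with Krt14 at 0 at D7. The 6 endothelial markers summed to 121 and 133 CPM at D7 and 20.5 and 26.2 CPM at D0, and 4 of the 5 tested were called higher and none lower. Their median log2 change was 5.27, or 2.95 with Tie1, at 0 at D0, set to its bound of at least 7.73-fold. Pecam1 had 68 ± 1.37 CPM at D7 and 0.619 ± 0.183 CPM at D0 (edgeR adjusted p = 0.000442), and pluripotent cells are known to express it too. Cdh5 (5.27) and Tek (2.45) were the other two called higher. Their part in the members' levels was not tested.

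**Figure D5:**
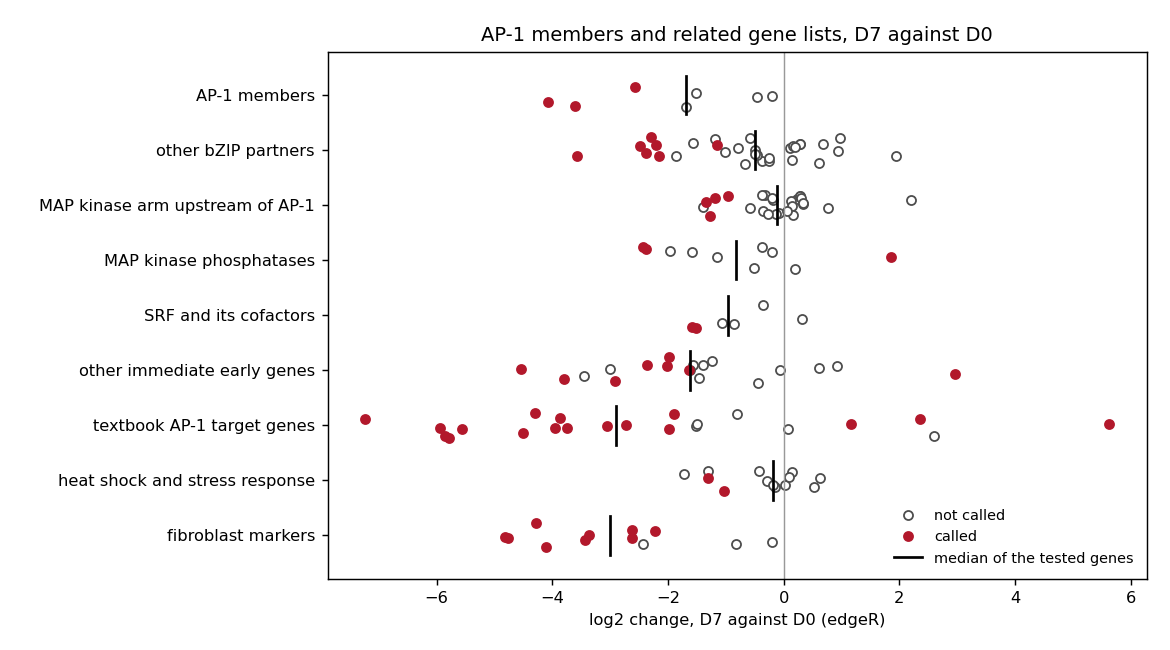
Log2 change at D7 against D0 (x axis, edgeR) of every tested gene of the AP-1 members and of the related lists (rows). Filled points were called at adjusted p under 0.05, open points were not, and the bar is the median of the tested genes. The medians are -1.69 for the members, -1.62 for the other immediate early genes, -2.89 for the textbook AP-1 targets, -3.00 for the fibroblast markers and -0.11 for the MAP kinase genes.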

How the data were processed

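Bowtie2, RSEM and bcl2fastq and the build mm10 are named in the submitters' processing notes; their versions, the annotation release and the strand setting were not given in the sources used here. By the file headers, each of the 10 files is an RSEM gene table with expected counts, TPM and FPKM from the authors. Expected counts as deposited are estimated reads per gene, not normalised, and TPM as deposited are scaled for length and library size. TPM was used to compare levels between genes, and FPKM was not used. RSEM divides reads between overlapping or near-identical genes by estimation. The labels list 2 library kits and do not tie either to a library. Of 54752 identifiers 54723 matched a GENCODE M21 name.

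Expected counts were rounded to whole numbers, filtered with edgeR's filter (minimum count 10), scaled by TMM and tested by quasi-likelihood F tests in edgeR 4.0.16 (with limma 3.58.1 under R 4.3.3) in 1 model with a term per day over all 10 libraries. Calls needed an adjusted p (Benjamini-Hochberg) under 0.05 over all 12752 tested genes. The SE is the size of the log2 change over the square root of F. The filter asked for 5.45 CPM in at least 2 libraries, so Fosb and Batf3 were not tested. Printed CPM are TMM-scaled unless said otherwise. Genes with few counts were compared by pooled counts with exact 95% intervals or a floor of 3 counts a day, which cover counting error only. The procedure was tested on simulated data, with independent libraries, the same spread setting for every gene and changes at D7 only. That test does not cover libraries that deviate together by replicate number or genes with a larger spread.

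Libraries with the same replicate number deviated together from their day means: the correlation was 0.273 to 0.436 in all 10 pairs of days. The number therefore pairs the libraries here, a pairing read from the data, and values with it as a term stand beside results whose call it changes and counts it moves by over 1.5 times. Alternatives were that term, RLE scaling, DESeq2 1.42.0, no filter, a minimum count of 30, limma on log2(TPM + 1) and leaving out each library. CPM in place of TPM for shares and ratios was added after the data were seen.

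The members and gene lists were chosen with earlier results of these data known. From each related list up to 4 called genes per direction with the largest D7 to D0 change and up to 2 uncalled genes with the highest mean CPM are named, and a few genes that this rule picks are not reported here. Likeness names the 3 genes with the highest Pearson correlation of log2 CPM (prior count 2). Promoter windows are from RefSeq.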

Additional observations from a re-analysis of the deposited data

How the results depend on the processing

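With 2 libraries a day the tests have little power, low members rest on few counts, and replicate 2 is shallower throughout. With the replicate block the genes called were 1350 (D1 against D0), 2742 (D3), 3342 (D5), 3629 (D7), 206 (D3 against D1), 421 (D5 against D3) and 20 (D7 against D5), and the members called were 1, 3, 5 and 5 against D0 and 1 for D5 against D3. With no filter, and so with more genes tested, the genes called were 1064 (D1 against D0), 2047 (D3), 2620 (D5) and 2892 (D7). In the 3 steps they were 272, 452 and 176. The members called with no filter were 2, 3, 4 and 5 against D0 and 1 for D5 against D3. DESeq2 called 128, 151 and 30 genes in the steps. Against D0 it called 2 members at D3 (Fosl1 and Fosl2), among 1677 genes. At D7 it called 4 members (Jun beside the 3), among 2226 genes. A minimum count of 30 gave 11 genes for D3 against D1, and limma on TPM gave 17 and 1 genes for the 2 later steps. Without the filter Fos was called higher at D1. Fosl2 at D3 lost its call with limma (adjusted p = 0.0504), where Fosl1 was called instead. Jdp2 at D7 lost its call with a minimum count of 30 (adjusted p = 0.0507) and limma (0.0582). Every gene called in the main model against D0 was also called with the block.

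The sign turned for Jund, D5 against D0, with the block (-0.14) and limma on TPM (-0.33), and for Atf3, D5 against D0, with limma (-0.04). It also turned for Fosl2, D7 against D5, with no filter (0.02) and limma (0.17). With the block, 2 changes near 0 rounded to 0: Jdp2, D3 against D1 (main -0.04, SE 0.46), and Fosl2, D7 against D5 (main -0.03, SE 0.59). None of these was called, and the cause was not tested. By summed CPM, Jund's share was 25.9% at D1, 55.8% at D5 and 60.6% at D7.

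Leaving out each library in turn, with the lone library of a day assumed to vary like the others, gave 121 to 911, 589 to 2102, 819 to 2183 and 839 to 2988 genes against D0 (D1 to D7) and 0 to 45, 0 to 288 and 0 to 227 in the steps. The members called ran 0 to 1, 0 to 2, 0 to 4 and 0 to 5 against D0. The main counts were 577, 1549, 2079 and 2278 genes against D0 and 7, 9 and 0 in the steps. Calls rose without some libraries, as without D5 replicate 1, which gave 911 genes at D1, and the cause was not tested.

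The sign of these uncalled log2 changes turned in some of those fits. For D1 against D0 they ran Jund -0.88 to 0.04. For D5 against D0 they ran Jund -1.17 to 0.79 and Atf3 -0.71 to 1.33. For D7 against D0 they ran Atf3 -0.4 to 0.06 and Jund -1.26 to 0.08. For D3 against D1 they ran Jdp2 -0.48 to 0.7, Fos -0.98 to 0.18, Fosl2 -0.88 to 0.2 and Jun -0.6 to 0.15. For D5 against D3 they ran Fosl2 -1.22 to 0.16, Atf3 -1.56 to 0.43, Fosl1 -1.74 to 0.04, Jun -1.35 to 0.11, Junb -2.39 to 0.03 and Jund -1.44 to 0.45. For D7 against D5 they ran Fos -1.79 to 0.28, Fosl2 -0.68 to 0.68, Jun -1.16 to 0.42, Junb -2.15 to 0.26, Jund -1.37 to 0.69 and Atf3 -1.48 to 0.5.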
